A study of Mus musculus with 3 samples.

Results

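The genes described here encode the potassium channels that set resting potential and excitability without the classical voltage-gated design, together with the HCN pacemaker channels. Members were all gene symbols that begin with Kcnj, Kcnk, Kcnn, Kcnt, Kcnu, Kcnma or Kcnmb followed by a number, and those of the Hcn family. The rule took 47 of the 32532 symbols listed in the deposited count files, and symbols with 0 counts stayed in. They comprise 15 inward rectifiers (Kcnj), 14 two-pore leak channels (Kcnk), 12 subunits of calcium- or sodium-activated channels and their relatives, 4 Hcn genes, and 2 antisense RNAs of Kcnmb4 that the naming pattern also catches.

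RNA bound to tagged ribosomes was sequenced from whole cerebral cortex of adult mice that carried both the Htr3a-Cre driver NO176 and the reporter Rosa26-LSL-EGFP/Rpl10a. Cre, made under the Htr3a driver, removes a stop cassette so that the ribosomal protein Rpl10a is made as an EGFP fusion, and antibodies against EGFP then pull down polysomes (translating ribosome affinity purification, TRAP). A cell that expressed Cre at any earlier time keeps the tag. There were 3 libraries, replicates 1, 2 and 3 of 1 immunopurified group, with no unpurified cortex among the samples analysed here and no other genotype or treatment. All comparisons are therefore between genes within the same libraries, or between the 3 libraries. Whether each replicate was a separate animal is not stated in the labels. P-values thus set the differences among these 3 samples against counting error, and those differences could be technical.

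Inward rectifiers pass potassium into the cell more easily than out of it and hold the membrane near its resting potential. Two-pore channels carry the background leak of potassium, calcium-activated channels open after calcium entry during spikes, and HCN channels open on hyperpolarization and carry a depolarizing current. In cortical interneurons these conductances shape input resistance, spike after-potentials and the response to neuromodulators that act through G proteins.

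Gene counts summed to 14383545, 13951332 and 14461053 in replicates 1, 2 and 3. For a gene at 0 counts the upper limit was set at 3 counts, or 0.207 to 0.215 counts scaled to library size (CPM), which covers counting error only. Levels are given as TPM, the count divided by the length of the gene's merged exons and scaled so that the values of each library have an equal total. The tissue and cell labels were checked against marker genes. All 8 general GABAergic markers were at 1 TPM or more in 3 of 3 libraries, with a summed level of 3914 to 4225 TPM. Markers of interneuron types reached it for 6 of 6 Vip type genes (2324 to 2744 TPM), 5 of 5 Lamp5/Ndnf type genes (3331 to 4109 TPM), 4 of 5 Sst type genes (8218 to 9404 TPM) and 5 of 5 Pvalb type genes (458 to 551 TPM). Excitatory neuron markers reached that level for 7 of 8 genes, with sums of 749 to 1032 TPM, and astrocyte markers for 8 of 8 genes, with sums of 90.8 to 101 TPM. Oligodendrocyte markers did so for 6 of 6 genes (146 to 240 TPM), microglial markers for 4 of 7 (13.5 to 23.4 TPM), mural markers for 2 of 6 (24.5 to 28.4 TPM) and endothelial markers for 0 of 5 (3.22 to 3.63 TPM). Of all marker genes listed, Folr1 alone, a choroid plexus marker, was at 0 counts. Markers of other cell types were thus detected, and their part in the members' counts was not tested. A single gene made up most of the Lamp5/Ndnf sum (Npy, 2732 to 3555 TPM) and of the Sst sum (Sst, 7670 to 8753 TPM). The sums therefore do not rank the interneuron types. A lower level could mean fewer cells of a type or less RNA per cell, which these bulk libraries cannot tell apart.

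The start regions of these genes fall into windows that are rich and poor in CG, the dinucleotide that forms CpG islands at many mammalian promoters. RefSeq (GRCm38.p6) supplied windows from 250 bases before to 50 bases after the annotated start for 36 of the 47 members, 45 windows in all. The following 5 windows show both kinds, with a highly CG-dense pair from detected genes, a CG-poor detected gene and a pair of CG-poor genes at 0 counts. They were chosen after their CG counts were seen. Each is written 5′ to 3′ on the gene's own strand, and capitals mark each CG.
Kcnma1, chr14:24004156-24004455, minus strand: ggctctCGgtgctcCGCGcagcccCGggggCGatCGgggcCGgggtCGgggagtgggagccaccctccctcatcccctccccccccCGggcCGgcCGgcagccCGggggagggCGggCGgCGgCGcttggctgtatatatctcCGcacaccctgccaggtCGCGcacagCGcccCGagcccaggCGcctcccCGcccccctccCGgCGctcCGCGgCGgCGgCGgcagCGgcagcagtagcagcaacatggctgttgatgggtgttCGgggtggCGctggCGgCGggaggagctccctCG
Kcnj4, chr15:79505192-79505491, minus strand: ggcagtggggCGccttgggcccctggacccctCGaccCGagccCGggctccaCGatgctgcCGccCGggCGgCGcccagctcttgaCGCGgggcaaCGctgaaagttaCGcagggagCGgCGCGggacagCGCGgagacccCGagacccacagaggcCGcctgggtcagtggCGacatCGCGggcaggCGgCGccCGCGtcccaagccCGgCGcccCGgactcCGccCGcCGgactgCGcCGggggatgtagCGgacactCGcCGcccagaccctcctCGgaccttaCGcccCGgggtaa
Kcnj9, chr1:172329273-172329572, minus strand: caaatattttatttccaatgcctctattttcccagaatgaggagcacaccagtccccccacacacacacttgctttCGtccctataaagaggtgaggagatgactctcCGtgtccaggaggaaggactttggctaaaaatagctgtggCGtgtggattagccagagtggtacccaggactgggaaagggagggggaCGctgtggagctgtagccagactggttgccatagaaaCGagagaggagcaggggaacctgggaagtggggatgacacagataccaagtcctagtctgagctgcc
Kcnj1, chr9:32393735-32394034, plus strand: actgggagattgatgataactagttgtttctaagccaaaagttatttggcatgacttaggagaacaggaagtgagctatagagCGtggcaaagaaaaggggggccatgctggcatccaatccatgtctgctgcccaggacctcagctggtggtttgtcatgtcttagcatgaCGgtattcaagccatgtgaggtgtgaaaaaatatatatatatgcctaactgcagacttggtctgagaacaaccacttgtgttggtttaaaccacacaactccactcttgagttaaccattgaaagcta
Kcnmb1, chr11:33962763-33963062, plus strand: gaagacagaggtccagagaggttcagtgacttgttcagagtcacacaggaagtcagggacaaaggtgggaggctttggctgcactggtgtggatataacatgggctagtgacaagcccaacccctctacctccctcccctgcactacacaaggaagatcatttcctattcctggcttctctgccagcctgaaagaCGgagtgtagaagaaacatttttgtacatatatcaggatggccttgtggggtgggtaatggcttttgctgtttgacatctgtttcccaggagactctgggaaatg

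The windows of Kcnma1 and Kcnj4 held 36 and 41 CG. The window of Kcnj9 held 5, although Kcnj9 averaged 53.7 TPM. The windows of Kcnj1 and Kcnmb1, both at 0 counts in 3 of 3 libraries, held 2 and 1. The Kcnma1 and Kcnj1 windows lie inside the GENCODE spans of their genes, downstream of the outermost annotated start. Those spans are chr14:23289431-24014491, minus strand, and chr9:32372493-32399197, plus strand. For genes with several starts the one with the most CG was counted, and CG reads the same on both strands. The 21 members with a window and at least 1 TPM in 3 of 3 libraries had a median of 18 CG, and 12 of them held 15 or more. The 15 members below that level had a median of 6 CG, and 3 of them held 15 or more. Among protein-coding genes the medians were 23 CG at 1 TPM or more and 4 below it, with 77.9% and 18.6% of genes at 15 CG or more. Across all 32851 windows of the same length, 94.6% held at least 1 CG and 34.6% held at least 15. The members thus divided in the same direction as protein-coding genes at large. Kcnk5, at 0 counts with 26 CG, and Kcnj12, at 37.8 TPM with 4 CG, lay on the opposite side of that division. The only window of Kcnj12 starts at chr11:61065554, inside the GENCODE span of the gene (chr11:61022564-61071131, plus strand). The upstream annotated start of Kcnj12 had no window, so its CG were not counted.

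**Figure D1:**
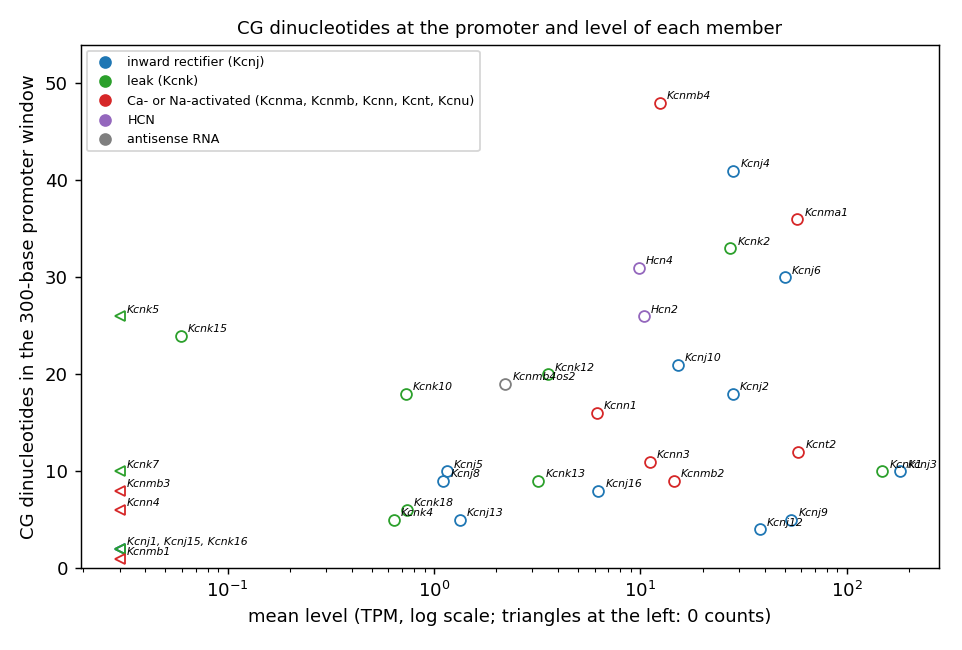
CG dinucleotides in the 300-base promoter window (vertical axis) against mean level over 3 libraries (horizontal axis, TPM on a log scale) for the 36 members with a window; triangles at the left mark members at 0 counts. With merged exons as length Kcnma1 (36 CG) and Kcnj9 (5 CG) have similar levels with different windows. With principal transcript lengths they are at 145 and 39.2 TPM. Kcnk5 is the only zero-count member above 15 CG.

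Because the families contain close relatives, the coding sequences of the 45 protein-coding members were compared for identical stretches that could let a short read match more than 1 gene. Of 990 pairs, 5 shared an identical run of 30 or more nucleotides and 0 shared 50 or more, and the median longest run was 11 nucleotides. The longest run, shared by Hcn2 and Hcn3, and the longest run of an inward rectifier pair, Kcnj4 and Kcnj12, are shown because they mark the limit of sequence sharing within the set.
Hcn2 and Hcn3: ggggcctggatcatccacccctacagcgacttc
Kcnj4 and Kcnj12: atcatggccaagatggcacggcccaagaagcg
These runs were 33 and 32 nucleotides long. Untranslated regions were not compared.

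At 1 TPM or more in 3 of 3 libraries stood 29 of 47 members, where 50.9% of all genes with a known length reached that level. For the 45 protein-coding members the count was 28, or 62.2%, against 57.6% of protein-coding genes. At 10 TPM or more stood 19 members, 42.2% of the protein-coding ones, against 33.3% of all genes and 38.2% of protein-coding genes. The shares were thus close to the background. Kcnj3 and Kcnk1 were among the members that reached 100 TPM in 3 of 3 libraries, a level that 7.42% of all genes reached. At 0 counts in 3 of 3 libraries stood 8 members, Kcnj1, Kcnj15, Kcnk5, Kcnk7, Kcnk16, Kcnmb1, Kcnmb3 and Kcnn4, against 24.3% of protein-coding genes. Their upper limits ran from 0.165 to 0.697 TPM. The members' median level was 5.65 ± 0.804 TPM (SD, n = 3), and that of protein-coding genes 4.50 ± 0.351 TPM. For the 42 voltage-gated potassium channel genes, another potassium channel class, the median was 20.98 ± 0.745 TPM, with 35 genes at 1 TPM or more and 26 at 10 TPM or more.

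**Figure D2:**
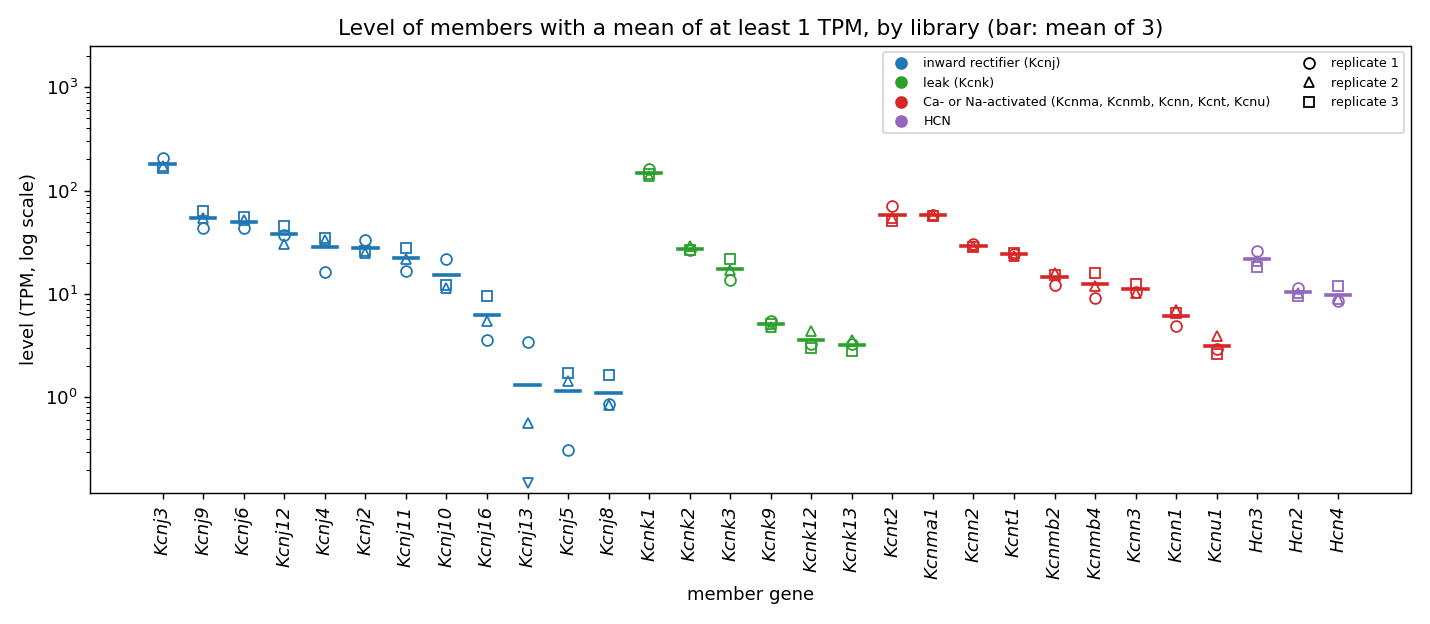
Level of members with a mean of at least 1 TPM (vertical axis, TPM on a log scale), by gene within family (horizontal axis); symbols are the 3 libraries and bars their mean, and the downward triangle marks Kcnj13 at 0 counts in replicate 3. Kcnj3 leads the inward rectifiers and Kcnk1 the leak channels, both above 100 TPM, while Kcnt2 and Kcnma1 lead the activated channels at 58.2 and 57.6 TPM.

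Among inward rectifiers, the subunits of the G protein-gated GIRK channels were the most abundant, with a summed level of 286 ± 5.68 TPM (SD, n = 3). GIRK channels are tetramers opened by G protein βγ subunits downstream of receptors such as GABA-B. Kcnj3 (GIRK1, chr2:55435970-55598145, plus strand, GRCm38) does not form working channels on its own and pairs with other subunits. It was at 205, 172 and 167 TPM in replicates 1, 2 and 3 (181 ± 20.6, SD), highest in replicate 1. Kcnj9 (GIRK3), a subunit tied to channel sorting, was at 43.0, 54.7 and 63.5 TPM, lowest in replicate 1. Kcnj6 (GIRK2, chr16:94748636-94997701, minus strand), which can form channels by itself and anchors most neuronal GIRK tetramers, was at 43.1, 51.6 and 55.1 TPM, also lowest in replicate 1. Kcnj5 (GIRK4), the subunit known from atrial muscle, was at 0.311, 1.45 and 1.70 TPM, from 4, 19 and 23 counts.

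Kcnj3 made up 70.4%, 61.5% and 58.1% of the GIRK sum, Kcnj9 18.8% on average and Kcnj6 17.5%. The level of Kcnj3 exceeded that of Kcnj6 in 3 of 3 libraries, by 1.86 on the log2(TPM + 0.1) scale (SD 0.34), or 3.63-fold. This size depended on the length assumed for Kcnj6, whose merged exons span 7633 nucleotides and whose principal transcript spans 3097. With principal transcript lengths the difference was 0.56. Kcnj9 and Kcnj6 differed by 0.09 (SD 0.10), with Kcnj9 higher in 2 of 3 libraries. With principal transcript lengths Kcnj6 stood above Kcnj9, at -1.05 for Kcnj9 minus Kcnj6, so the order of this pair was set by the length used. With 3 libraries an exact sign-flip test of any such pair cannot go below p = 0.25, and no p-values are given for pairs. Exons of Kcnj3 were overlapped over 31.08% of their length by Gm26794 on the opposite strand. Whether counting used strand is not stated, and reads from such overlapping genes cannot be told apart.

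Genes that activate, sort or desensitize GIRK channels ranged widely in level, and each of the 8 measured was at 10 TPM or more in 3 of 3 libraries. The GABA-B receptor subunits Gabbr1 and Gabbr2 were at 273 ± 13.5 and 311 ± 42.1 TPM (SD, n = 3 for these and the following). Their auxiliary subunits Kctd12, which speeds desensitization, and Kctd16 were at 279 ± 55.0 and 32.4 ± 3.53 TPM. Gnb1 and Gnb5, which encode G protein β subunits, were at 1091 ± 102 and 126 ± 22.8 TPM. Rgs7, the partner of the Gnb5 protein in closing the channel, was at 202 ± 15.2 TPM, and Snx27, which sorts GIRK subunits in endosomes, at 181 ± 2.65 TPM.

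The classical strong inward rectifiers of the Kir2 group summed to 94.7 ± 10.5 TPM (SD, n = 3), with Kcnj12, Kcnj2 and Kcnj4 at 39.8%, 29.9% and 29.4% of it on average. Kcnj12 was at 37.6, 30.5 and 45.3 TPM, lowest in replicate 2. Kcnj2, mutated in Andersen-Tawil syndrome in humans, was at 33.0, 24.8 and 26.0 TPM, highest in replicate 1. Kcnj4 (chr15:79483714-79505241, minus strand), whose CG-dense start is printed above, was at 16.2, 33.5 and 34.9 TPM, so replicate 1 lay below the other two. The order of these 3 genes was not the same in each library. Kcnj4 minus Kcnj2 was -0.06 (SD 0.83) and Kcnj4 minus Kcnj12 was -0.48 (SD 0.68) on the log2(TPM + 0.1) scale. Without length correction Kcnj4 minus Kcnj2 was -1.39. The fourth gene, Kcnj14, was at 0.828 ± 0.769 TPM from 2, 13 and 4 counts.

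The pore subunits of ATP-sensitive channels, which couple metabolism to excitability, were present as Kcnj11 at 16.6, 21.9 and 28.0 TPM and Kcnj8 at 0.856, 0.839 and 1.64 TPM. Kcnj11 exceeded Kcnj8, the subunit typical of vascular mural cells, by 4.23 on the log2(TPM + 0.1) scale (SD 0.28), or 18.8-fold, in 3 of 3 libraries. With a pseudocount of 1 this difference was 3.45. The sulfonylurea receptors that complete the channel were lower, Abcc8 at 4.85 ± 0.965 TPM (SD, n = 3) and Abcc9 at 1.02 ± 0.356 TPM. Kcnj10, the main potassium-buffering channel of glia, was at 21.8, 11.4 and 12.2 TPM, highest in replicate 1. Kcnj16, which joins Kcnj10 in heteromers, was at 3.60, 5.52 and 9.62 TPM, lowest in replicate 1. Kcnj10 was above Kcnj16 in 3 of 3 libraries, but the difference fell from 2.56 in replicate 1 to 1.03 and 0.34 in the others. Its mean of 1.31 (SD 1.14) was less than 2 SD. Beside these values, summed oligodendrocyte markers were at 240, 163 and 146 TPM in replicates 1, 2 and 3. Summed astrocyte markers were at 90.8, 94.7 and 101 TPM, but their median was 13.2, 10.7 and 10.2 TPM, highest in replicate 1. The part of these cell types in the Kcnj10 and Kcnj16 levels was not tested.

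Of the remaining inward rectifiers, Kcnj13, a channel of epithelia including choroid plexus, had 12, 2 and 0 counts. Gigyf2, a gene on the opposite strand with 1650, 1462 and 1523 counts, overlapped 49.06% of its exons, and reads of the pair cannot be told apart. Kcnj1, the kidney channel ROMK, and Kcnj15 were at 0 counts. Of 11 neighbouring pairs in the order of inward rectifier levels, only Kcnj3 and Kcnj9 were separated in the same direction in 3 of 3 libraries and by more than 2 SD.

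Leak channels were dominated by 1 gene. Kcnk1 (TWIK1, chr8:125995170-126030685, plus strand), a weak leak channel that can turn permeable to sodium, was at 163, 138 and 145 TPM (148 ± 12.9, SD). It supplied 71.2% of the summed leak channel level of 208 ± 9.46 TPM (SD, n = 3). Kcnk2 (TREK1), opened by stretch, lipids and volatile anaesthetics, was at 26.3, 28.9 and 26.5 TPM, nearly the same in each library. Kcnk1 exceeded Kcnk2 by 2.44 on the log2(TPM + 0.1) scale (SD 0.19), or 5.42-fold, in 3 of 3 libraries. With principal transcript lengths, where Kcnk2 counts as 1548 nucleotides in place of 4943, the levels were 97.4 TPM for Kcnk1 and 57.1 TPM for Kcnk2. The relatives of Kcnk2 were scarce, Kcnk10 (TREK2) at 0.580, 0.934 and 0.673 TPM and Kcnk4 (TRAAK) at 0.896, 0.399 and 0.622 TPM. Kcnk2 stood 33.5-fold above Kcnk10 and 38.4-fold above Kcnk4 (log2 differences of 5.06, SD 0.24, and 5.26, SD 0.57). Being low, these partners made the folds depend on the pseudocount, and with a pseudocount of 1 the differences were 4.03 and 4.12. With principal transcript lengths Kcnk2 minus Kcnk10 was 6.45. Kcnk2 made up 95.2% of the summed level of these 3 mechanosensitive channels.

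The acid-sensitive TASK channels, which are closed by protons and by Gq-coupled receptors, were led by Kcnk3 (TASK1). Kcnk3 was at 13.6, 17.0 and 22.0 TPM, lowest in replicate 1. Kcnk9 (TASK3) was at 5.47, 4.84 and 5.11 TPM and varied little. Kcnk3 was above Kcnk9 in 3 of 3 libraries, by 1.73 on the log2(TPM + 0.1) scale (SD 0.40), or 3.31-fold. The counts were closer, at 149, 190 and 252 for Kcnk3 and 185, 167 and 181 for Kcnk9. Merged exons span 3976 nucleotides in Kcnk3 and 12300 in Kcnk9. Without length correction the difference was 0.12, and with principal transcript lengths it was 1.78. The halothane-inhibited THIK channels Kcnk12 and Kcnk13 were at 3.55 ± 0.701 and 3.20 ± 0.385 TPM (SD, n = 3), not separated from each other.

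Further leak channels lay at the limit of detection. Kcnk6 (TWIK2) was at 0.855 ± 0.244 TPM (SD, n = 3), and Kcnk15 had a single count, in replicate 2. Kcnk18 (TRESK), a calcineurin-regulated channel known from sensory ganglia, had 2, 0 and 20 counts, so its signal came almost wholly from replicate 3. Kcnk5, Kcnk7 and Kcnk16 were at 0 counts. Among genes for leak channel partners, Akap5, a scaffold that binds TREK1, was at 191 ± 7.27 TPM, Copb1 at 41.1 ± 6.74 TPM and S100a10 at 28.8 ± 5.48 TPM.

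The BK channel pore gene Kcnma1 (chr14:23289431-24014491, minus strand) had the smallest spread, relative to its mean, of the 19 members at 10 TPM or more in each library. BK channels open with both calcium and voltage and produce the fast after-hyperpolarization. Kcnma1 was at 58.2, 57.7 and 56.9 TPM (57.6 ± 0.648, SD), from 2718, 2748 and 2784 counts. Its auxiliary β subunits were lower. Kcnmb2, which makes BK currents inactivate, was at 12.3, 16.1 and 15.2 TPM, and Kcnmb4, the neuronal subunit that slows gating and confers toxin resistance, at 9.08, 12.01 and 16.1 TPM. Kcnma1 exceeded Kcnmb4 by 2.25 on the log2(TPM + 0.1) scale (SD 0.43), or 4.75-fold, and by 2.90 with principal transcript lengths. Kcnmb4 minus Kcnmb2 was -0.26 (SD 0.29), with Kcnmb4 higher in 1 of 3 libraries, and with principal transcript lengths it was 0.92. The smooth muscle subunit Kcnmb1 and Kcnmb3 were at 0 counts, with upper limits of 0.249 to 0.260 TPM for Kcnmb1 and 0.607 to 0.636 TPM for Kcnmb3.

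The antisense RNAs Kcnmb4os1 and Kcnmb4os2 had 0, 0 and 2 counts and 6, 15 and 17 counts. Together they overlapped 31.53% of the exons of Kcnmb4, and both Kcnmb4 and Kcnmb4os2 were lowest in replicate 1. Of the γ subunits that let BK channels open at rest, Lrrc55 was at 18.1 ± 2.76 TPM (SD, n = 3), Lrrc26 at 1.79 ± 1.08 TPM and Lrrc52 at 0 counts. Lrrc38 had 82, 13 and 32 counts, highest in replicate 1. Lingo1, a membrane protein reported to bind BK channels, was at 227 ± 47.0 TPM.

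The small-conductance SK channels, gated by calcium through bound calmodulin and responsible for the medium after-hyperpolarization, summed to 46.6 ± 1.11 TPM (SD, n = 3). Kcnn2 (SK2) was at 30.1, 29.2 and 28.7 TPM. Kcnn3 (SK3) was at 10.4, 10.2 and 12.5 TPM, and Kcnn1 (SK1) at 4.92, 6.99 and 6.51 TPM. The order Kcnn2, Kcnn3, Kcnn1 held in each library. Kcnn2 exceeded Kcnn3 by 1.40 on the log2(TPM + 0.1) scale (SD 0.19), or 2.65-fold, and Kcnn1 by 4.77-fold (Kcnn1 minus Kcnn2 -2.25, SD 0.30). With principal transcript lengths these differences were 0.63 and -3.14. Kcnn4, the intermediate-conductance channel of blood and epithelial cells, was at 0 counts, which puts Kcnn3 at least 48.9-fold higher in each library. Calmodulin genes stood far above the channels, with Calm2 at 14723 ± 1019 and Calm3 at 1318 ± 301 TPM. Csnk2b, a subunit of the kinase bound to SK channels, was at 14.9 ± 5.14 TPM.

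The sodium-activated Slo2 channels summed to 82.4 ± 11.1 TPM (SD, n = 3). Kcnt2 (SLICK, chr1:140246158-140612067, plus strand) was at 70.6, 53.8 and 50.3 TPM, highest in replicate 1. Kcnt1 (SLACK), mutated in human infantile epilepsies, was at 24.5, 23.3 and 24.6 TPM, with nearly no spread. Kcnt1 was below Kcnt2 in 3 of 3 libraries, by -1.25 on the log2(TPM + 0.1) scale (SD 0.25), which puts Kcnt2 2.38-fold higher. Kcnu1, the pH-gated channel of sperm, was at 2.92, 3.91 and 2.60 TPM from 30, 41 and 28 counts. In the order of levels Kcnt2 and Kcnma1 were not separated, whereas 5 of 8 neighbouring pairs were, among them Kcnma1 above Kcnn2 by 0.97 (SD 0.02) and Kcnn2 above Kcnt1 by 0.28 (SD 0.06). Without length correction this last pair turned, with Kcnn2 at 43.2 CPM and Kcnt1 at 45.2 CPM. Kcnma1 stood above Kcnt2 with principal transcript lengths (145 and 74.4 TPM) and without length correction (193 and 78.9 CPM).

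HCN subunits form tetramers that differ in opening speed and in sensitivity to cAMP. Hcn3, a slow and little cAMP-sensitive subunit, was at 25.9, 20.9 and 18.4 TPM. Hcn2, the widely expressed cAMP-sensitive subunit, was at 11.4, 10.3 and 9.45 TPM. For both genes replicate 1 was the highest and replicate 3 the lowest. Hcn4, the slow subunit known from the sinoatrial node, went the other way, at 8.62, 8.91 and 11.9 TPM.

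Hcn3 stood 2.07-fold above Hcn2 (Hcn2 minus Hcn3 -1.05 on the log2(TPM + 0.1) scale, SD 0.12), in 3 of 3 libraries. Hcn2 and Hcn4 were not separated, with a difference of 0.09 (SD 0.37). Exons of Hcn3 were overlapped over 17.12% of their length by Pklr on the other strand, which had 2, 6 and 6 counts. Pex5l (TRIP8b), the auxiliary subunit that controls HCN trafficking and cAMP response, was at 63.1 ± 9.55 TPM (SD, n = 3). Kcne2, a single-span subunit reported to modify HCN currents, had a single count, in replicate 1.

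Of 20 pairs compared, 16 had the same direction in 3 of 3 libraries and 15 of these also had a mean over 2 SD. Pairs of long and short genes depend on the length used. Kcnma1, with 38 annotated transcripts, had 16976 nucleotides of merged exons and a principal transcript of 4440. Its mean level was 57.6 TPM with the first length and 145 TPM with the second, which moved it from rank 5 to rank 1 among the members. Kcnj3 went from 181 to 119 TPM and Kcnk1 from 148 to 97.4 TPM. Kcnn3 went from 11.1 to 26.3 TPM. The 14 detected members whose lengths are equal under both choices fell 1.52-fold, since the total is fixed. Without length correction Kcnma1 (193 CPM) and Kcnj3 (186 CPM) were nearly level.

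**Figure D3:**
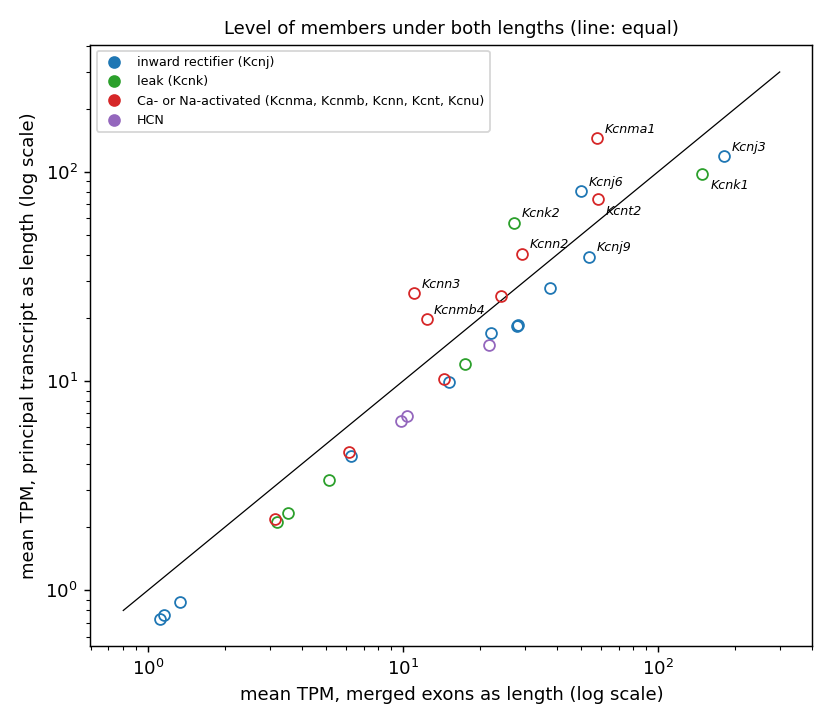
Mean level over 3 libraries of the members at a mean of 1 TPM or more, with merged exons as length (horizontal axis, TPM on a log scale) against principal transcript as length (vertical axis, TPM on a log scale); the line marks equal values. Kcnma1 lies farthest above the line (57.6 and 145 TPM), whereas Kcnj3 and Kcnk1 lie below it.

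The libraries differed from each other by more than counting error for 18 of the 30 members with a mean of at least 1 CPM, by a chi-square test of counts against TMM-scaled library sizes with Benjamini-Hochberg adjustment over all 12949 such genes. The share of all tested genes past that test was 74.3%, so variation of this kind was common and the members' share of 60% did not exceed it. Voltage-gated potassium channel genes passed in 28 of 36 cases. The largest ratio of the highest to the lowest library was that of Kcnj5 at 5.32 (adjusted p = 0.00443), followed by Kcnj16 at 2.59 (adjusted p = 4.85e-07), Kcnj4 at 2.08 (adjusted p = 2.54e-09) and Kcnj10 at 1.95 (adjusted p = 1.33e-15). Among members past the test, Kcnmb4, Kcnj11 and Kcnk3 followed at 1.72, 1.63 and 1.57 (chi-square adjusted p = 0.000472, 4.8e-06 and 0.000109). Among deeply counted genes, the adjusted p-values of the chi-square test were 1.11e-19 for Kcnt2 and 5.09e-19 for Kcnj3.

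Of the 18, 7 were highest in replicate 1, 11 in replicate 3 and 0 in replicate 2. Kcnj4, Kcnj5, Kcnj6, Kcnj9, Kcnj11, Kcnj16, Kcnk3 and Kcnmb4 were lowest in replicate 1, as were 9 of the 18 in all. Hcn3, Kcnj2, Kcnj3, Kcnj10, Kcnk1 and Kcnt2 were among those highest there. Among all varying genes 39.8%, 23.9% and 36.2% were highest in replicates 1, 2 and 3, and 41.6% were lowest in replicate 1. Within the GIRK group the subunits thus moved in opposite directions while their sum stayed at 291, 280 and 287 TPM. Without replicate 1, 8 members passed (among them Hcn4, Kcnj9, Kcnj11, Kcnj12, Kcnj16, Kcnk3 and Kcnn3), and 42.5% of all genes did. Beside this division, replicate 1 also had the lowest Pvalb (48.6, 106 and 111 TPM) and the lowest Slc17a7 (158, 170 and 261 TPM), a marker of excitatory neurons. It had the highest sum of oligodendrocyte markers (240, 163 and 146 TPM). The part of these other cell types in the variation of the members was not tested.

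**Figure D4:**
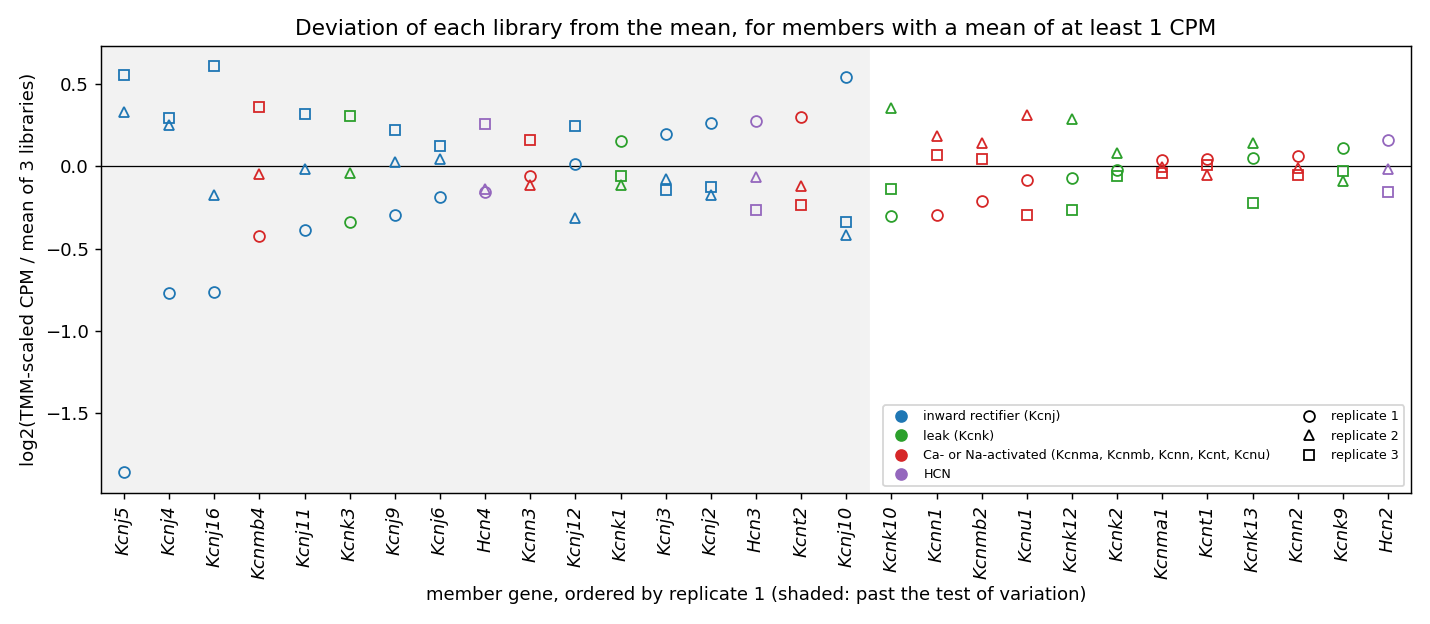
Deviation of each library from the mean of 3 (vertical axis, log2 of TMM-scaled CPM over the mean) for members with a mean of at least 1 CPM (horizontal axis), ordered by replicate 1 within the shaded members past the test and the unshaded members not past it; symbols are libraries. Replicate 1 lies lowest for Kcnj5, Kcnj4 and Kcnj16 and highest for Kcnj10, and the libraries of Kcnma1, Kcnn2 and Kcnt1 nearly coincide.

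The 12 members that did not pass included the abundant Kcnma1, Kcnn2, Kcnt1 and Kcnk2 (chi-square adjusted p = 0.169, 0.395, 0.498 and 0.383). For Kcnma1 the ratio of the highest to the lowest library was 1.05. With DESeq2 size factors in place of TMM scaling its adjusted p was 0.0435, the only call that this change added. The others were Hcn2, Kcnmb2, Kcnn1, Kcnk9, Kcnk10, Kcnk12, Kcnk13 and Kcnu1. Where counts are few, not passing does not mean a small ratio. Kcnk10 (14, 23 and 17 counts) had a ratio of 1.58 and Kcnu1 (30, 41 and 28 counts) 1.52, whereas Kcnt2 passed at 1.45.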

How the data were processed

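For each of 3 immunopurified libraries, 1 group in all, the authors deposited unnormalized read counts by gene symbol. STAR 2.0.0e, HTSeq and the build mm10 are named, without roles, in the submitters' processing notes. For annotation, counting mode and strand setting, the sources used here give nothing. Records on no feature (11.0% to 13.1%), ambiguous (2.49% to 2.83%) or without a unique alignment (11.2% to 13.1%) stayed out of library sizes.

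Exon lengths came from GENCODE M21 (GRCm38, the assembly that mm10 denotes), for 23852 symbols, 739 of them matched by an older name. TPM and log2(TPM + 0.1) were computed here. A pair was called separated where it had the same direction in 3 of 3 libraries and a mean over 2 SD. Variation between libraries was tested, above a mean of 1 CPM, by a chi-square test of counts against library sizes scaled with edgeR 4.0.16 (TMM), Benjamini-Hochberg threshold 0.05, with DESeq2 1.42.0 size factors as an alternative. The test was tested on simulated counts. The software was Python 3.11.15 (SciPy 1.17.1, NumPy 2.4.6, pandas 2.3.3, matplotlib 3.10.9) and R 4.3.3.

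The members and lists were chosen with earlier results of these data known. Members at 10 TPM or more in 3 of 3 libraries, those alone in a role and those in a compared pair were given by library, apart from those not reported; the others are given by mean or count. Gene coordinates are those of GENCODE M21 and promoter windows those of RefSeq. Values of some genes are not reported here, although counts over all members include them. No test between groups exists. Other lengths, pseudocounts of 1 and 0.01, no filter on low counts, total-count scaling and leaving out each library were tried.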

Additional observations from a re-analysis of the deposited data

How the results depend on the processing

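The number of members that varied between libraries was 18, and leaving out 1 library gave 8 to 17, with 8 without replicate 1. Over all tested genes the shares were 42.5%, 62.2% and 54.5% without replicates 1, 2 and 3. Without a filter on low counts, 20 of 39 members and 59.3% of all genes passed, Kcnj13, Kcnj14 and Kcnk18 being added and Kcnn3 lost (chi-square adjusted p = 0.0511). The 29 members at 1 TPM or more became 28 with principal transcript lengths, and 26 when genes overlapped over more than 20% of their exons were left out. The fall to 26 is the removal of Kcnj3, Kcnmb4 and Kcnmb4os2 from the list, not a loss of detection. Principal transcript lengths moved 18 of 32 levels by more than 1.5 times, and longest transcript lengths 3 of 32. Among the 18, Kcnj6, Kcnk2, Kcnma1, Kcnmb4 and Kcnn3 rose. The rest fell, and members with equal lengths under both choices fell 1.52-fold only because the total is fixed. Of the 20 pairs compared, 0 of those with the same direction in 3 of 3 libraries changed direction under the alternatives run. Other pseudocounts and leaving out a library cannot reverse such a pair, so only the changes of length could have done so. Kcnn4, at 0 counts, could not rise above Kcnn3 under any setting. Among separated neighbours in the order of levels, Kcnn2 and Kcnt1 changed order without length correction. Neighbours that were not separated also changed order, for example Kcnj9 and Kcnj6 (45.5 and 75.3 CPM) and Kcnt2 and Kcnma1 (78.9 and 193 CPM). No paired analysis was possible because the 3 libraries form 1 group. Depth limits the members below about 1 TPM, whose levels rest on few counts.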
